A study of Mus musculus with 22 samples.

Results

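Cortical microglia were compared with 5 other cell types of the mouse brain by the mRNA bound to their ribosomes. The members were the 3 libraries labelled as microglia, of 18 libraries compared and 22 in the series, and they were taken by label and by no measured value. In RiboTag mice, Cre recombinase switches an allele of Rpl22, a protein of the large ribosomal subunit, to a version with an HA tag, and tagged ribosomes with their mRNA are then pulled from the homogenized tissue with anti-HA beads. All animals were 6 weeks old and carried Rpl22 Fl/+, from B6N.129-Rpl22tm1.1Psam/J mothers, together with a paternal Cre allele. The microglia carried Tmem119-cre, which the study's methods describe as a tamoxifen-inducible CreERT2 placed at the Tmem119 gene itself, and came from the cortex of 1 female (replicate 1) and 2 males (replicates 2 and 3). The comparison groups, each of 3 libraries, were astrocytes (Aldh1-cre in the labels, an inducible Aldh1l1 driver in the methods; cortex), interneurons (Dlx6a-cre, hippocampus, 2 mice pooled for each library), cerebellar granule cells (Gabra6-cre, cerebellum) and 2 types that Rbp4-cre marks, layer V neurons when cortex is taken and dentate gyrus granule cells when hippocampus is taken. According to the methods, mice of inducible lines were given tamoxifen orally, daily for 5 days from the age of 3 weeks. The drivers of the neuron types are not described as inducible. Tamoxifen and cell type therefore could not be told apart between microglia and the neurons. Sex was not a term of the comparison, and the sexes of the comparison libraries are not reported here. Layer V neuron replicate 1 is labelled female in batch 1 and male in batch 2. All 3 microglia and all 3 interneuron libraries were sequenced in batch 2 and the 12 other libraries used here in batch 1, so that batch could not be a term of the comparison, and cell type and brain region could not be told apart for the types taken outside the cortex.

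Microglia are the resident macrophages of the brain. They descend from the yolk sac rather than from the neural tube, renew themselves in place under signals from the receptor CSF1R, survey synapses with motile processes, and clear dead cells and debris into lysosomes. Their identity is held by transcription factors shared with other myeloid cells, among them PU.1 (gene Spi1), RUNX1 and IRF8, together with SALL1, which other macrophages largely lack.

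The label was checked against 5 genes that mark microglia. Tmem119, a membrane protein of microglia, was at 1101, 1173 and 1118 TPM (the deposited level, scaled for transcript length and library size) in replicates 1, 2 and 3, and at 0.0497 to 5.28 TPM (median 0.588) in the 15 other libraries. P2ry12, the ADP receptor that steers the processes toward injury, was at 1592, 1690 and 1490 TPM, against 0.0785 to 12.5 (median 1.06). Itgam (CD11b, a chain of complement receptor 3) was at 630.6, 662.9 and 615.5 TPM, Aif1 (the calcium-binding protein IBA1) at 1036, 1034 and 999.6, and Cd68 (a lysosomal protein of macrophages) at 777.7, 832.4 and 780.3. No library of another type was above 5.28 TPM for any of the 5 genes apart from P2ry12, which reached 12.5 TPM in an astrocyte library, so the groups did not overlap for any of them. The log2 fold change against the mean of the 5 types was 11.11 ± 0.07 (SE) for Tmem119, 10.41 ± 0.08 for P2ry12, 11.02 ± 0.07 for Itgam, 9.40 ± 0.07 for Aif1 and 9.33 ± 0.07 for Cd68, with adjusted p between 3.28e-25 and 6.59e-24 by edgeR's quasi-likelihood test. The microglia libraries held 50308142 to 70663176 estimated counts and the 15 others 38270477 to 71440915, and mitochondrially encoded genes took 1.473% to 2.058% of TPM in microglia and 0.223% to 2.612% elsewhere.

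Of 20524 genes tested, 8902 (43.4%) were higher in microglia than the mean of the 5 types and 7721 (37.6%) were lower at an adjusted p of at most 0.05, while 3901 were not called. With a change of at least 2-fold as well, 5945 were higher and 4260 lower, and the median log2 fold change over all genes was 0.09. Higher calls made up 53.6% of all calls, and 43.6% when limma was run on log2(TPM + 1) in place of edgeR on counts, with a median of -0.15. The mean of the 5 types is an equal-weight mean on the log scale, so a gene nearly absent from a single type can be called higher although its plain average elsewhere is not lower. The text therefore leans on a stricter rule, at least 2-fold and an adjusted p of at most 0.05 against each of the 5 types separately. By that rule 2653 genes (12.9%) were enriched in microglia, 1979 of them protein-coding, and 1248 (6.08%) were depleted, 1111 of them protein-coding. Over the nearest type, 563 genes were enriched by at least 4 log2 units (16-fold) and 51 by at least 8, while 7 genes were depleted by at least 4. These counts are not alike, because depletion by this rule needs expression in all 5 other types and enrichment needs it in microglia alone. Neuronal mRNA measurable in the microglia libraries, described below, also bears on the depth of depletion, and its part was not tested. Astrocytes were the nearest type for 1330 of the enriched and 807 of the depleted genes. In TPM, all 3 microglia libraries lay above all 15 others for 3886 genes (18.9%) and below all of them for 3170 (15.4%). Within batch 2 alone, with 3 microglia, 3 interneuron and 1 library of each other type, 2316 genes were enriched against each type and 1257 depleted, of which 2199 and 1136 were also called in the comparison of 18 libraries. With all 22 libraries and batch as a term, where the repeat sequencing of a replicate counts as a further library, 2616 were enriched and 1286 depleted, 2491 and 1197 of them shared. In bulk material of this kind, fewer cells of a type and less RNA per cell cannot be told apart.

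**Figure D1:**
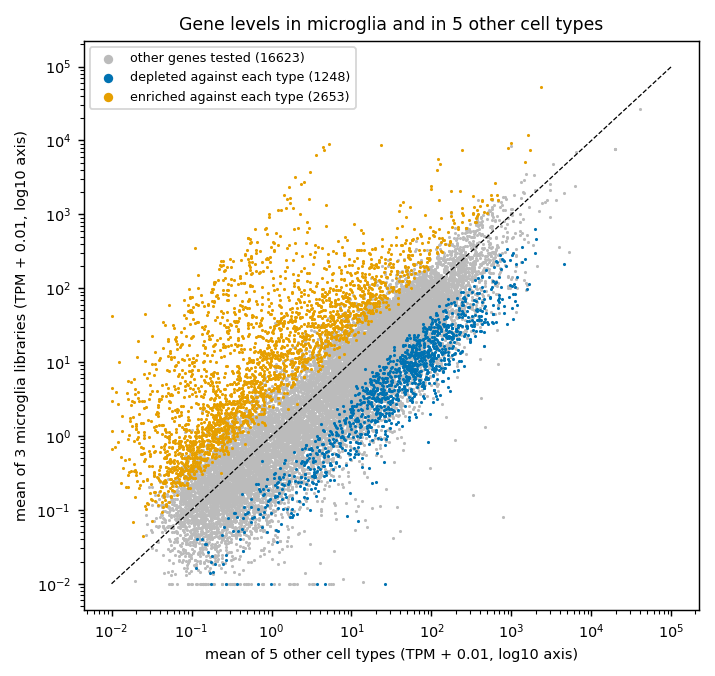
Each point is a gene tested, with its mean TPM over the 5 other cell types (each type the mean of its 3 libraries) on the horizontal axis and its mean TPM over the 3 microglia libraries on the vertical axis, both log10 axes with 0.01 TPM added. The 2653 genes enriched against each type (orange) reach far above the diagonal of equal levels, and the 1248 depleted genes (blue) stay closer to it.

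The enriched genes took 37.3% to 38.9% of all TPM in the microglia libraries. In the other types the same genes took between 2.93% (a cerebellar granule cell library) and 5.47% (an astrocyte library). The depleted genes took 2.22% to 2.33% in microglia, 8.2% to 8.72% in astrocytes and 13% to 18.2% in the neurons. These shares describe the chosen genes and are no test of them.

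The highest single level belonged to Cst3, the secreted cysteine protease inhibitor cystatin C. It stood at 49509, 55225 and 51630 TPM, against 131.4 to 11370 TPM elsewhere, the upper end in astrocytes, which were the nearest type at a log2 fold change of 2.08. Sparc, a matrix-associated glycoprotein, was at 5465, 5721 and 5726 TPM with 595 TPM in its highest other library. Tmsb4x (thymosin beta 4, which binds actin monomers) and Actb (beta actin) were high in every type and higher in microglia, at 11868, 12348 and 11044 TPM against 326.5 to 3363 for Tmsb4x and 7524, 7295 and 7131 TPM against 1249 to 2766 for Actb.

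All 21 genes of the list of microglia surface and secreted genes were enriched against each of the 5 types, with a median log2 fold change of 10.41 beside the 0.09 of all genes. This list and those below were chosen with earlier results of these data known, so their counts describe the members and are no test. Over all genes tested, 43.4% were higher, 37.6% lower, 12.9% enriched and 6.08% depleted. Csf1r, the receptor for the survival factors CSF1 and IL-34, was at 3854, 3888 and 3638 TPM against 0.219 to 11.2 TPM. Cx3cr1, the receptor for neuronal fractalkine, was at 1679, 1674 and 1601 TPM against 0.0759 to 7.26, Selplg (a selectin ligand) at 3187, 3293 and 3110 against 0.0834 to 8.27, and Fcrls (an Fc receptor-like scavenger protein) at 2262, 2441 and 2368 against 0.0195 to 6.39. No library of another type exceeded 11.2 TPM for any of these 4 genes. Siglech, a sialic acid-binding lectin, was at 1424, 1452 and 1337 TPM, Olfml3 (a secreted olfactomedin-like protein) at 662.6, 652.4 and 621.4, and Gpr34 (a receptor for lysophosphatidylserine) at 302.3, 350.3 and 256.5. Sall1, the transcription factor named above, reached 22.4 TPM in an astrocyte library against 170.6, 162.5 and 138.3 TPM in microglia, a log2 fold change of 2.86 over astrocytes. It therefore separated microglia from the neurons more than from astrocytes.

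**Figure D2:**
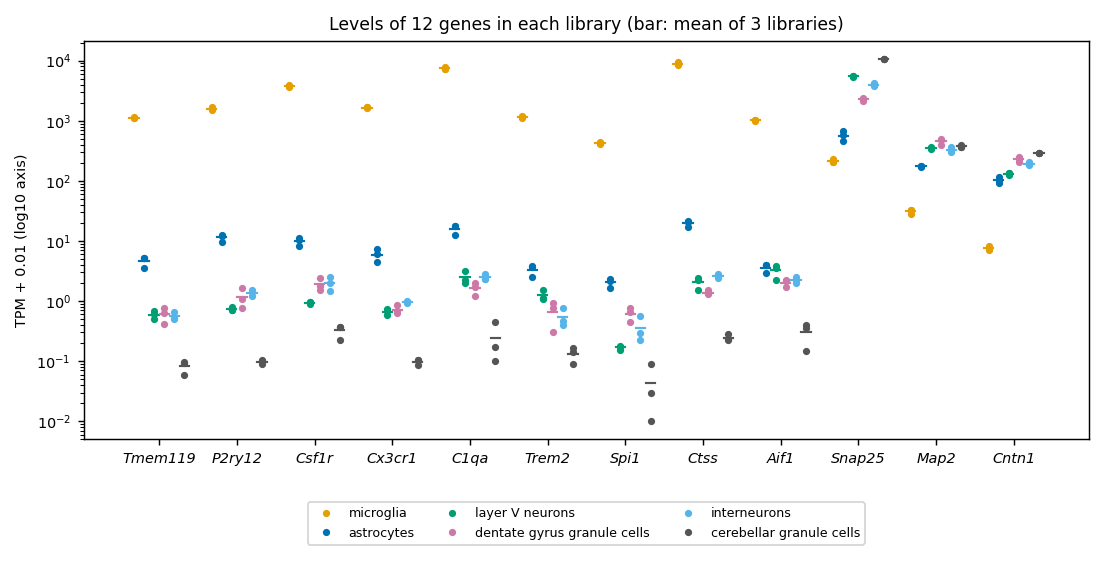
TPM of 12 genes in each of the 18 libraries on a log10 axis with 0.01 TPM added, with a point for each library, coloured by cell type, and a short bar at the mean of the 3 libraries of a type. For the 9 microglial genes the 3 microglia points sit together above all 15 others, and for Snap25, Map2 and Cntn1 they sit below all others.

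The 10 protein-coding genes of at least 20 CPM (counts scaled to library size) with the widest margin over the nearest type were Bglap, C1qb, Fcgr3, Selplg, C1qc, C1qa, Tagap, Ctss, Fcrls and Bglap2. C1qa, C1qb and C1qc encode the 3 chains of C1q, the complement protein that starts the classical pathway and tags synapses. C1qa was at 7306, 7723 and 7393 TPM, C1qb at 7989, 8304 and 8182, and C1qc at 6367, 6563 and 6313. The highest level in any other library was 17.9 TPM. The log2 fold changes against the mean were 11.96 ± 0.10, 12.32 ± 0.07 and 12.37 ± 0.07, and against astrocytes, the nearest type, they were 8.79, 8.99 and 8.81. The 3 genes lie next to each other on chromosome 4 between 136880129 and 136898803 (GRCm38). Of the 18 complement genes listed, 17 were higher, none lower, and 14 enriched, with a median of 8.15. The receptors for the complement fragments followed C1q, with C3ar1 at 51, 49.9 and 50.8 TPM and C5ar1 at 39.9, 35.7 and 43.9 TPM against less than 0.3 TPM elsewhere. Components further down were low even where they were called. C3, the central component, was at 1.56, 0.69 and 1.91 TPM, C2 at 5.73, 4.02 and 5.25 TPM with 6.47 TPM in an astrocyte library, and C4b at 10.9, 7.45 and 11.1 TPM with 23.2 TPM in an astrocyte library. The membrane inhibitor Cd55 was at 1.31 to 2.05 TPM and was not called (log2 fold change -0.29 ± 0.16, adjusted p = 0.0944).

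Receptors that signal through ITAM motifs, the tyrosine-based motifs that recruit the kinase SYK, and their inhibitory counterparts were enriched throughout, at 27 of 27 genes and a median log2 fold change of 9.58. With each cell type whose 3 libraries were all at 0 held at a floor of 3 counts over the group, this median was 9.03, and those of the innate sensing and transcription factor lists described next were 7.62 and 6.56. Tyrobp (DAP12, the adaptor) was at 2758, 2792 and 2668 TPM against 0.107 to 9.75, and Fcer1g (the Fc receptor common chain) at 1602, 1630 and 1576 TPM against 0 to 6.82. Trem2, a lipid-sensing receptor that pairs with DAP12, was at 1116, 1218 and 1150 TPM against 0.0804 to 3.75. The groups did not overlap for any of them. Among Fc receptors, Fcgr3 was at 1849, 1893 and 1821 TPM, Fcgr1 at 258.9, 254.2 and 242.5, Fcgr2b (inhibitory) at 296.1, 306.3 and 289.8, and Fcgr4 at 21.7, 18 and 21.4. Downstream, Syk was at 109.1, 105.4 and 104.3 TPM, Plcg2 (phospholipase C gamma 2) at 99.5, 99.9 and 90, and the lipid phosphatase Inpp5d (SHIP1), which opposes PI3 kinase, at 409.9, 408.8 and 394.2. The margin was smallest for Sirpa, the receptor for the CD47 signal that restrains engulfment, at 927.7, 1050 and 939.2 TPM in microglia and 113.8 to 391.1 TPM elsewhere (log2 fold change 2.13 ± 0.03).

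Genes for sensing microbial and danger signals were mostly enriched, while the levels of several inflammatory cytokines were low. Of 31 sensing genes tested, 30 were higher and 27 enriched, with a median of 7.75. Tlr7, which reads single-stranded RNA in endosomes, was at 101.7, 129.6 and 116.1 TPM, Tlr13 at 69.2, 83.4 and 77.1, Tlr2 at 36, 33.2 and 29.4 and Tlr4 at 15.9, 18.3 and 17. Tlr3, which reads double-stranded RNA, was higher against the mean but not enriched, at 49.1, 49.9 and 48 TPM in microglia and up to 70.8 TPM in astrocytes. Unc93b1, the chaperone that carries the nucleic acid-sensing receptors to endosomes, was at 653.2, 674.2 and 624.2 TPM. The inflammasome genes Nlrp3 (35.6, 25.2 and 26.7 TPM), Pycard (230.2, 229.4 and 215.1 TPM), Casp1 (52.3, 52.1 and 43.8 TPM) and Gsdmd (82.3, 86.1 and 87.1 TPM) were all enriched. Cytokine genes were at lower levels. Il1b was at 2.73, 1.21 and 1.07 TPM, Tnf at 0.299, 0.347 and 0.311 and Il6 at 2.39, 2.54 and 1.52, and all 3 were enriched against each type, with no other library above 0.803 TPM for any of them. Il10 was listed at 0 in all 3 libraries. Il1a, at 19.3, 12.9 and 13.1 TPM, was the highest of the interleukin 1 genes. Il18 was at 76.7, 79 and 77.9 TPM but reached 265.6 TPM in astrocytes. Of 17 cytokine and growth factor genes tested, 12 were higher and 7 enriched. Among these Tgfb1, an autocrine factor of microglia, stood at 257.7, 252.4 and 222.8 TPM against 0.556 to 4.61 TPM. Its receptor genes Tgfbr1 (354.6, 378.4 and 327.3 TPM) and Tgfbr2 (108.5, 116.9 and 100.7 TPM) were enriched as well. The genes of the CSF1R ligands were not enriched, and their direction against the mean depended on the comparison group. Csf1 was at 10.1 to 12.7 TPM in microglia and up to 23 TPM in dentate gyrus granule cells, and Il34 was at 20.9 to 25 TPM in microglia and up to 103.9 TPM in layer V neurons. Bdnf was at 1.7, 1.76 and 1.86 TPM, lower than the mean of the other types (log2 fold change -2.38 ± 0.08), and Igf1 at 1.07 to 2.54 TPM was not called.

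Of 21 cytokine and growth factor receptors, 19 were higher and 17 enriched (median 6.20). Ifngr1, the interferon gamma receptor chain, was at 624.8, 643 and 597 TPM, Il6ra at 138.1, 141.5 and 128.5, Il10ra at 149.7, 141.3 and 121.7, and Il21r at 103.4, 96.9 and 94 TPM. Il1r1, the signalling receptor for interleukin 1, was at 1.37, 1.02 and 1.76 TPM and Flt3 at 1.35, 1.56 and 1.61 TPM, and both were lower than the mean of the other types. That direction depended on the comparison group, since against layer V neurons and astrocytes alone Il1r1 was at a log2 fold change of 0.46 and Flt3 at 0.11. Among 19 chemokine and chemokine receptor genes, 17 were higher and 14 enriched (median 7.97). Ccl9 was at 120.2, 151.9 and 113.1, Ccl6 at 99.2, 123.7 and 108.1, and Ccl12 at 55.7, 65.2 and 77.8 TPM. Ccl3 (14.9, 22.9 and 20.3 TPM) and Ccl4 (18.5, 24.5 and 24.4 TPM) were lower in level, and no other library exceeded 0.212 TPM for either. Ccr2, the receptor that marks blood monocytes, was at 1.08, 1.12 and 1.24 TPM. Cx3cl1, the fractalkine ligand of CX3CR1, was lower than the mean of the other types, at 65.2, 71.7 and 69.2 TPM against a median of 336.7 elsewhere. It was not lower than every type, since its log2 fold changes against single types ran from -3.33 to 1.33.

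For antigen presentation, 18 of 19 genes were higher and 16 enriched (median 5.44). The class I genes were high, with B2m at 4614, 4733 and 4950 TPM, H2-D1 at 493.1, 457.6 and 546.5 and H2-K1 at 445.1, 421.3 and 511.2. The class II chains were low, with H2-Ab1 at 12.6, 11.9 and 14.2 TPM, H2-Aa at 4.92, 4.03 and 4.66 and H2-Eb1 at 4.39, 5.19 and 4.06. Astrocyte libraries reached 6.89 TPM for H2-Aa and 7.19 TPM for H2-Eb1, so for these 2 genes the groups overlapped. Ciita, the coactivator that switches class II genes on, was at 0.0209 to 0.0292 TPM and not called (adjusted p = 0.36). The class II loading chains H2-DMa (228.9, 217.3 and 206.9 TPM) and H2-DMb1 (91.7, 86.7 and 84.3 TPM) and the costimulatory ligand Cd86 (115.9, 118.4 and 118.3 TPM) were high all the same. All 20 interferon-stimulated genes listed were higher and 14 were enriched (median 4.29), at modest levels, such as Ifit3 at 32.7, 27.5 and 42.5 TPM, Isg15 at 30.2, 22.9 and 33.1 and Oas1a at 10.8, 7.31 and 13.4. Bst2 (tetherin) was the highest of them at 162.4, 151.2 and 168.3 TPM.

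All 20 transcription factors of the myeloid lineage were higher and 17 were enriched (median 6.81). Spi1 was at 443.8, 428.9 and 403.8 TPM against 0 to 2.33, Irf5 at 208.7, 207.8 and 198.4 against 0.0385 to 1.89, Irf8 at 204.1, 171.6 and 145.1 against 0.0885 to 1.62, and Ikzf1 at 125.1, 137.9 and 128.3 against 0 to 0.635. Runx1 was enriched at a lower level, 21.1, 23.9 and 22.2 TPM against 0.0131 to 0.17. Maf, a factor of the leucine zipper family, was enriched but was also present in interneurons, at 189.5, 201.5 and 181.7 TPM in microglia and up to 95.2 TPM in interneurons. Mef2a, Mef2c and Bhlhe41 were called against the mean yet not enriched. Mef2c was at 166.1, 170.1 and 181.2 TPM in microglia, a median of 163.2 and up to 443.8 TPM (layer V neurons) elsewhere, and its log2 fold change turned from 0.48 to -0.25 without cerebellar granule cells.

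The promoters of the enriched genes were described from RefSeq sequence (GRCm38.p6), as 250 bases before to 50 bases after each start. PU.1 is known to bind a purine-rich site that the letters GAGGAAGT stand for, and these were searched on both strands. They occurred in 2.88% of 15962 promoters of tested protein-coding genes, in 6.65% of 1910 promoters of enriched genes, in 12% of 451 promoters of genes enriched at least 16-fold, and in 2.51% of 1077 promoters of depleted genes. The promoters also differed in base composition, with a median GC content of 59.7% for all, 56.7% for enriched, 52.7% for those enriched at least 16-fold and 60.7% for depleted genes. Among promoters of at most 60% GC the shares with the motif were 3.48%, 8.35%, 13.3% and 3.56% in the same order. TGANTCA, the letters of AP-1 sites, occurred in 5.53%, 7.43%, 10.2% and 3.9%, TATAAA in 8.19%, 10.1%, 11.3% and 6.96%, and GGGCGG, the GC box, in 57.7%, 49.4%, 34.1% and 58.2%. Matches of different motifs may overlap within a promoter and were counted for each motif. Promoters were found for 12563 of 16061 genes, and a match of letters is not a measured site.

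The stretches of 150 bases just before the start are shown for 7 genes of the 34 promoters with the motif in that stretch and at least 16-fold enrichment, to show where the motif lies. They are the first 6 by level and Tagap, which is also among the 10 genes with the widest margin over the nearest type. Each is given 5′ to 3′ along the gene's strand, with the motif in capitals, read as GAGGAAGT on the gene's strand or ACTTCCTC where it lies on the opposite strand.
Inpp5d (SHIP1), chr1:87620162-87620311, plus strand: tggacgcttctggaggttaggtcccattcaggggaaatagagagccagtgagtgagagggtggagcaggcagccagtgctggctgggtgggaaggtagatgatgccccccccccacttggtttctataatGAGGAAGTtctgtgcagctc
Cd37 (a tetraspanin of blood-derived cells), chr7:45238840-45238989, minus strand: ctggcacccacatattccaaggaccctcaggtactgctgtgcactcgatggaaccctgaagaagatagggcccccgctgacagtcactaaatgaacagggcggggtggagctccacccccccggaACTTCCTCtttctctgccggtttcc
Havcr2 (the checkpoint receptor TIM-3), chr11:46454781-46454930, plus strand: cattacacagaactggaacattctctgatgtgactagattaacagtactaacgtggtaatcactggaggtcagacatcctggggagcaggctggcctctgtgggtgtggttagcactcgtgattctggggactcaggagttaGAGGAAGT
Vav1 (a guanine nucleotide exchange factor for Rac), chr17:57278950-57279099, plus strand: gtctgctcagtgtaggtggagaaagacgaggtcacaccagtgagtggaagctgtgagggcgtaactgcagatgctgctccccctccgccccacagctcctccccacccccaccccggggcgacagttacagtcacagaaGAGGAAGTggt
Pycard (the inflammasome adaptor ASC), chr7:127993868-127994017, minus strand: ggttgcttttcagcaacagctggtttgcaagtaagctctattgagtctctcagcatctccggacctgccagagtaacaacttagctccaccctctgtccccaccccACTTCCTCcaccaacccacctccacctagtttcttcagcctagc
Hpgds (haematopoietic prostaglandin D synthase), chr6:65144731-65144880, minus strand: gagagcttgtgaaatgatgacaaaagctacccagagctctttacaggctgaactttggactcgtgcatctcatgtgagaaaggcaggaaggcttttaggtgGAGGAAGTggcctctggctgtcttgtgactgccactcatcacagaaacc
Tagap (a GTPase-activating protein of leukocytes), chr17:7925850-7925999, plus strand: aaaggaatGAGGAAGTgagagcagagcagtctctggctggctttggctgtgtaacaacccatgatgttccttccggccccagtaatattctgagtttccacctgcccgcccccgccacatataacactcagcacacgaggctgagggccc
In Havcr2 the motif ends at the last base before the start, in Vav1 it ends 3 bases and in Inpp5d 12 bases before it, while in Tagap it lies 134 bases upstream. The 7 genes were at 85.1 to 409.9 TPM in the microglia libraries and at most 4.56 TPM in the others. Tagap itself was at 89, 122.2 and 85.1 TPM against 0 to 0.275 TPM (log2 fold change 11.15 ± 0.15 against the mean and 8.78 against astrocytes). Havcr2 was at 230.2, 253 and 225.6 TPM against 0 to 0.682 TPM.

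Lysosomal genes were among those of the highest level in microglia, and 29 of 32 were higher, 2 lower and 21 enriched (median 3.40). Ctss, the cathepsin of professional antigen-presenting cells, was at 9049, 9352 and 8393 TPM against 0.215 to 21.6 TPM, with a log2 fold change of 12.18 ± 0.06. Ctsd, the aspartyl protease found in all cells, was at 7241, 7541 and 7522 TPM against 106 to 448.6 TPM, and Lgmn (legumain, an asparaginyl protease) at 4062, 3991 and 3771 against 36 to 176.8. Grn, the progranulin gene, was at 1338, 1343 and 1315 TPM against 32.6 to 60.9, and Laptm5, a lysosomal membrane protein of blood-derived cells, at 2539, 2660 and 2511 against 0.0328 to 8.94. Not every lysosomal gene stood out. Lamp1 reached 843.2 TPM in astrocytes against 732.3, 769.1 and 695.2 in microglia, Psap was at 2938, 2939 and 2793 TPM against 1037 to 1861, and Gaa (acid alpha-glucosidase, log2 fold change -0.98 ± 0.06) and Gla (alpha-galactosidase A, -0.94 ± 0.07) were lower in microglia. Receptors and bridging proteins for uptake were more evenly shared, with 16 of 21 higher and 8 enriched (median 2.11). Mertk, the receptor that binds dying cells through GAS6 and protein S, was at 194.3, 211 and 188.4 TPM and reached 150.1 TPM in astrocytes. Axl, its relative, was at 10.9, 11.5 and 14.9 TPM and lower than in astrocytes, where it reached 205.1 TPM. Pros1 (protein S) at 241.1, 243.7 and 207.3 TPM and Itgb5 at 1491, 1502 and 1383 TPM were enriched, while Megf10 (0.692, 0.86 and 1.09 TPM) and Mfge8 (41.8, 40.8 and 37.7 TPM) were at most a small fraction of the astrocyte levels, which reached 32.3 and 1572 TPM.

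**Figure D3:**
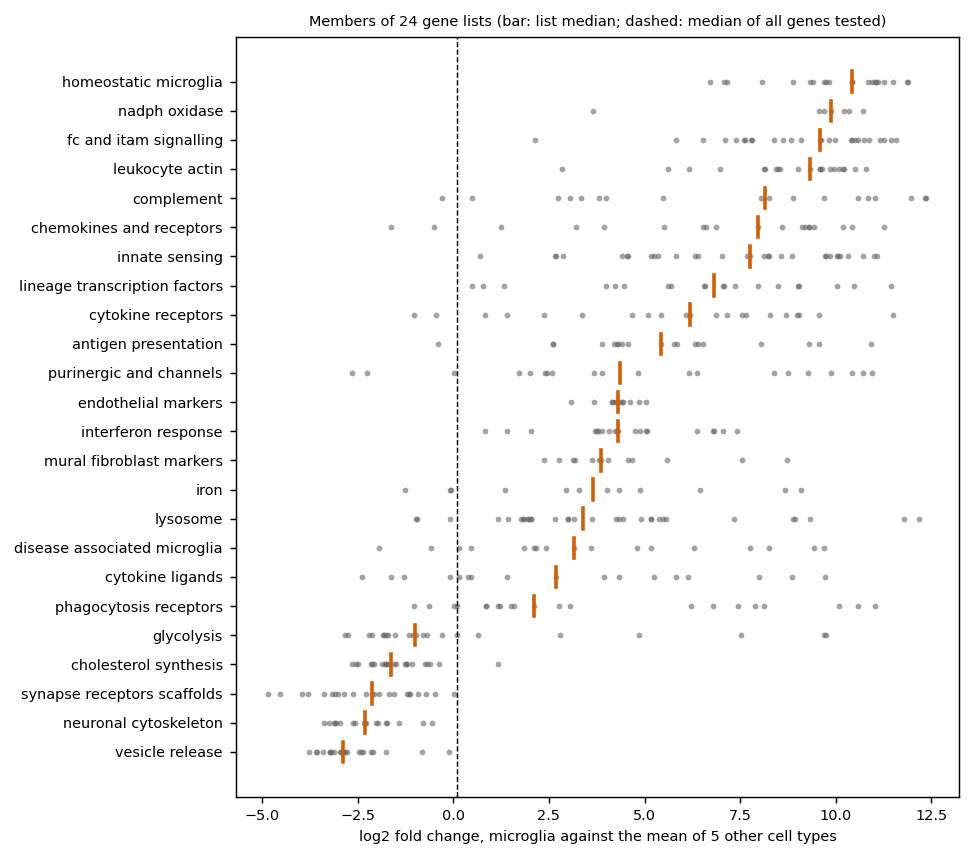
Log2 fold change of microglia against the mean of the 5 other types for every tested member of 24 gene lists, a point for each gene and a bar at the list's median, with a dashed line at the median of all genes tested (0.09). Immune and actin lists lie far to the right, up to a median of 10.41, synaptic lists lie to the left, down to -2.87, and glycolysis and cholesterol synthesis lie between.

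Actin and motility proteins of blood-derived cells were enriched in 21 of 21 cases (median 9.32), as were 6 of 7 genes of the phagocyte NADPH oxidase, the enzyme that makes superoxide, and of the proton channel that works beside it. Cyba was at 688.9, 644.4 and 637.7 TPM, Ncf1 at 426.2, 493.5 and 492.3, and Ncf4 at 74, 78.8 and 79.6. Cybb, the catalytic subunit gp91phox, stood apart from its partners at 0.758, 1.08 and 0.767 TPM, against 0.00814 to 0.688 TPM elsewhere. It was called higher against the mean (3.65 ± 0.26) but not against astrocytes (0.24). Hvcn1, the proton channel that offsets the charge moved by the oxidase, was at 129.7, 132.6 and 128 TPM.

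Many of these proteins are the leukocyte version of a gene family, and 28 pairs of related genes were compared on the TPM scale. In each pair 1 gene is called the myeloid member here, a name that does not hold for every pair. Aldoa, so named beside Aldoc, had a median of 3417 TPM in the other libraries and was lower in microglia. Mef2c, so named beside Mef2a, reached 443.8 TPM elsewhere. The pairs were chosen with earlier results of these data known, so their counts describe them and are no test. The myeloid member was higher in microglia in 24 pairs and enriched in 22, the other member was lower in 19, and both held in 16. Over all genes tested, 43.4% were higher, 37.6% lower and 12.9% enriched. In 17 pairs the order was reversed, with the myeloid member above its partner in all 3 microglia libraries and below it in all 15 others. The margin was narrow for Arhgdib, which took 50.2% to 51.3% of the sum with Arhgdia in microglia, and Arhgdia was itself enriched. Nckap1l (HEM1, of the WAVE complex that starts actin branching) was at 329.9, 331.8 and 321.4 TPM and Nckap1 at 22, 23.1 and 22.7, so that Nckap1l made up 93.4% to 93.7% of their sum in microglia and at most 0.884% elsewhere. The Src-family kinase Lyn took 90.2% to 91.5% of the sum with Fyn in microglia and at most 18.6% elsewhere. For the splicing regulators, Ptbp1 was at 143, 147.5 and 140.2 TPM and its neuronal relative Ptbp2 at 17.3, 22.5 and 18.6. In the other libraries Ptbp2 was at 68.9 to 139.5 TPM and Ptbp1 at 3.49 to 40.5 TPM. Hexokinases switched as well, with Hk2 at 116.6, 112 and 107.6 TPM and Hk1 at 56.3, 54.7 and 54.7, whereas in the other libraries Hk2 did not exceed 1.86 TPM and Hk1 was at 162.6 to 486.6. In other pairs both members were higher. Vav1 was at 236.9, 241.3 and 217.6 TPM and Vav2 at 51.9, 50.8 and 44.8, against medians of 0.202 and 3.61, and Ctsl, the partner of Ctss, was itself enriched. The V-ATPase pair gave no contrast, because Atp6v0d2, an isoform of osteoclasts and other macrophages, was at 0, 0.0808 and 0.0627 TPM and was not tested.

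**Figure D4:**
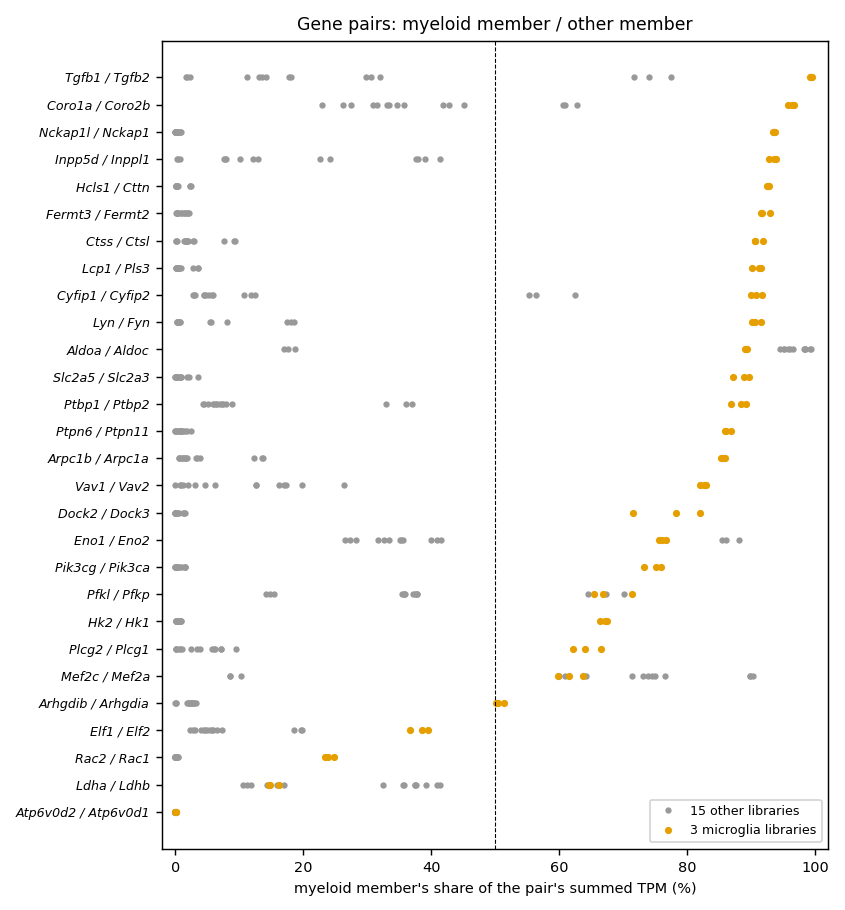
For 28 gene pairs, the percent of the summed TPM of both members held by the gene called the myeloid member in the text. There is a point for each of the 3 microglia libraries (orange) and each of the 15 other libraries (grey), on a linear axis from 0 to 100. In 17 pairs the microglia points lie above 50 and all grey points below 50, as for Nckap1l with Nckap1 (93.4 to 93.7 against at most 0.884).

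Nucleotide receptors and ion channels known from microglia were higher in 17 of 20 cases and enriched in 14 (median 4.36). P2ry13 was at 427.2, 438.7 and 376.3 TPM, P2ry6, the UDP receptor that triggers engulfment, at 171.4, 180.2 and 167.1, and Entpd1 (CD39, which breaks down ATP and ADP) at 381.5, 380.1 and 392.6. Nt5e (CD73, the next enzyme, which makes adenosine) was at 1.59, 1.15 and 1.42 TPM and was not called (0.03 ± 0.14, adjusted p = 0.871). The adenosine receptors divided, with Adora3 enriched at 65.7, 62.1 and 56.9 TPM and Adora1 lower at 15.8, 18.3 and 17.3 TPM. The potassium channel genes Kcnk13 (THIK-1, 17.3, 17.3 and 16 TPM) and Kcnk6 (97.6, 126.7 and 127.6 TPM) were enriched, and Kcna3 (Kv1.3) was lower at 0.498 to 0.553 TPM. Of a list of 12 genes of iron handling, which also holds Hpgds, the prostaglandin D synthase named above and no iron gene, 9 were higher and 7 enriched, Hpgds among both. Trf (transferrin) was at 2574, 2394 and 2330 TPM against 8.73 to 390.7 TPM, Slc11a1 (the phagosomal metal transporter NRAMP1) at 163.4, 165.6 and 152.8 against 0.0214 to 1.88, and Tfrc, the transferrin receptor, was lower at 24.5, 20 and 22.2 TPM (-1.26 ± 0.08).

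Glucose and sterol metabolism went mostly the other way. Of 22 genes of glucose uptake and glycolysis, 15 were lower, 7 higher, 5 depleted and 4 enriched (median -1.01). The depleted genes were Hk1, Pfkm, Tpi1, Pgk1 and Pgam1. Pfkm, the muscle-type phosphofructokinase, was at 49.8, 51.7 and 53.2 TPM against 241 to 566.1 TPM, and Tpi1 at 229.3, 232.1 and 254.4 against 601.4 to 1230. The 4 enriched genes were Slc2a5 (the fructose transporter GLUT5, 138.1, 142.7 and 136.1 TPM), Hk2, Hk3 (59.9, 58.5 and 55.3 TPM) and Slc16a3 (the lactate exporter MCT4, 20.3, 20.1 and 19 TPM). Of 22 cholesterol synthesis genes, 21 were lower and 7 depleted (median -1.62), and Ebp alone was higher (1.18 ± 0.04). Sqle, the squalene epoxidase, was at 5.06, 5.49 and 5.66 TPM against 14.2 to 119.1, and Hsd17b7 at 1.47, 1.48 and 1.59 against 5.46 to 17.3. Astrocytes were the highest type for 21 of these 22 genes. Genes of lipid efflux and storage were higher in 14 of 16 cases with 3 enriched (median 2.48). Apoe was at 2575, 2260 and 2472 TPM, above all neuronal libraries and below astrocytes, which reached 31686 TPM (log2 fold change 3.61 ± 0.08 against the mean and -3.46 against astrocytes). Abca9, a transporter of the ABCA family, was enriched at 82.1, 83.6 and 76.3 TPM.

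Among depleted protein-coding genes of at least 20 CPM in each other type, the widest margin was that of Cntn1. Cntn1 (contactin 1) was at 7.3, 8.17 and 7.18 TPM against 93.9 to 293.7 TPM, Gpm6a (a membrane glycoprotein) at 37.2, 40.7 and 36.5 against 565.5 to 1926, and Cadm2 (an adhesion molecule) at 4.57, 4.4 and 4.75 against 32.3 to 95.5. The log2 fold changes against the mean were -4.42 ± 0.08, -4.52 ± 0.07 and -4.18 ± 0.09. Gpm6a and Cadm2 were not confined to neurons, with astrocyte means of 956.1 and 90.3 TPM. Arxes1 and Arxes2, retrogene copies next to each other on chromosome X, were at 3.09 to 4.36 TPM in microglia against 29.5 to 211.6, and since they are near-identical their counts may have been divided between them. Fut9 (a fucosyltransferase), Pcdh9, Epdr1, Glrb (the glycine receptor beta subunit) and Negr1 completed the 10 genes with the widest margins, each more than 8-fold below the nearest type.

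None of the 22 genes of presynaptic vesicle release was higher, 21 were lower and 12 depleted (median -2.87). Snap25, a SNARE protein, was at 209.2, 233.4 and 204.9 TPM against 461.3 to 10712, and Syn2 at 26, 28.6 and 25.2 against 79.9 to 604.5. Stx1a was not called (-0.11 ± 0.10, adjusted p = 0.322), at 45.3, 54.7 and 59.2 TPM in microglia and between 2.31 TPM (cerebellar granule cells) and 474.2 TPM (layer V neurons) elsewhere. Of 23 transmitter receptors and scaffolds, 22 were lower and 9 depleted (median -2.12). Gabrb2 was at 1.84, 2.25 and 1.91 TPM against 10.7 to 231, and Nlgn3 at 4.69, 4.43 and 4.88 against 28.3 to 85.4. All 18 cytoskeletal genes of neurons were lower and 8 depleted (median -2.32), with Map2 at 28.3, 32.8 and 32.3 TPM against 173 to 492.9. Of 17 neuronal RNA-binding genes 15 were lower, and the 2 higher were Ptbp1 and Khdrbs3, the latter at -0.36 without cerebellar granule cells. Neuronal mRNA was still measurable in the microglia libraries. The median level of 14 neuron markers was 5.52% to 6.21% of their mean level in the 4 neuron types, where the astrocyte libraries stood at 11.8% to 12.9%. The neuron libraries themselves stood at 35% to 91.5% on this measure. In microglia it was higher for the 22 vesicle release genes, at 7.7% to 8.55%, and for the 18 cytoskeletal genes, at 11.1% to 13.5%. The 18 astrocyte markers stood at a median of 2.42% to 2.7% of their astrocyte level. Whether these levels come from mRNA carried along in the immunoprecipitation was not tested.

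Markers of vessels moved with the microglia libraries. All 12 endothelial genes listed were enriched against each type (median 4.32), including Ly6c1 at 187.3, 128.7 and 179.6 TPM, Cldn5 (the tight junction protein claudin 5) at 86.9, 54.8 and 53.8 and Pecam1 at 45.9, 35.4 and 40.4, where no other library exceeded 23.7 TPM for any of these 3. All 13 pericyte, smooth muscle and fibroblast genes were higher and 10 enriched (median 3.85), with Vtn at 190.2, 147.4 and 229.9 TPM and Rgs5 at 67.1, 59.1 and 64.1. Within batch 2 alone, 12 of 12 endothelial genes were enriched and 13 of 13 mural genes higher, 9 of them enriched. The summed TPM of the endothelial list was 444.2 to 645.7 in microglia and at most 110.5 elsewhere, and that of the mural list 487.3 to 1120 and at most 196.8. The part of such cells in other results was not tested. Of the markers of border macrophages, the macrophages of meninges and perivascular spaces, all 10 tested were higher and 5 enriched, but Lyve1 (0.188 to 0.317 TPM), Cd163 (0.29 to 0.374), Pf4 (0.586 to 1.79) and Ms4a7 (0.238 to 0.491) stayed under 2 TPM, and Mrc1 was at 8.53, 7.63 and 6.06 TPM. Stab1, which the list shares with uptake receptors, was at 160, 143 and 136.9 TPM. Of 14 monocyte and neutrophil markers 8 were tested, of which 4 were higher and enriched, 1 was lower and 3 were not called. The 4 enriched genes were Csf3r, the G-CSF receptor, at 113.3, 117.5 and 106.2 TPM, and at lower levels Plac8 (4.83, 3.66 and 6.52 TPM), Ly6c2 (0.927 to 2.45 TPM) and Ccr2, while Ly6g and Camp were at 0 in all 3 libraries. Of 12 oligodendrocyte markers 8 were higher than the mean of the types, 3 lower and none enriched. Mbp was among the lower ones, at 195.1, 218.4 and 222.4 TPM (-0.38 ± 0.04). Of 18 astrocyte markers 10 were higher, 5 lower and none enriched, and this count turned with the comparison group, with 2 higher and 13 lower against layer V neurons and astrocytes alone. Haemoglobin genes were higher than the mean in microglia and far below the astrocyte libraries, as for Hbb-bs at 295.4, 372.3 and 622.4 TPM against up to 5238. Of 8 lymphocyte markers tested, of 16 listed, 7 were higher and 2 enriched. Of 8 markers of oligodendrocyte precursors 6 were higher and none enriched, and of 9 ependymal and choroid plexus markers 4 were higher. Of 13 genes of blood-derived cells in general 11 were higher and all 11 enriched (median 9.53). Over all genes tested, 43.4% were higher, 37.6% lower and 12.9% enriched, and the ependymal and choroid plexus count was near that share of higher genes.

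**Figure D5:**
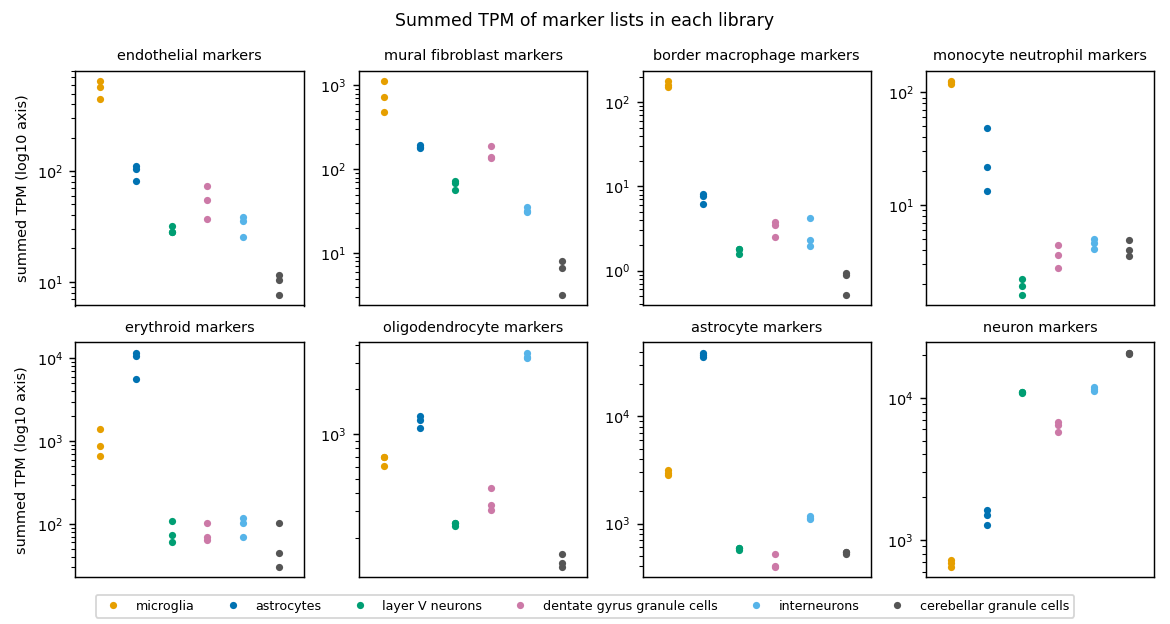
Summed TPM of 8 marker lists in each of the 18 libraries, a panel for each list, with a point for each library on a log10 axis, coloured by cell type. Endothelial and mural markers are highest in the 3 microglia libraries, neuron markers lowest there, and astrocyte markers far below the astrocyte libraries.

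Genes that rise in microglia around plaques and in demyelination were mixed in these healthy young animals. Of 17 listed, 14 were higher, 2 lower and 8 enriched (median 3.16). The enriched genes included general lysosomal and surface genes at high levels, Ctsd, Ctsb (1267, 1352 and 1284 TPM) and Cd9 (658.9, 722.1 and 675.2 TPM), and specific genes at low levels, Cst7 at 13.4, 17.7 and 15.6 TPM, Clec7a at 10.8, 13.5 and 9.76 and Itgax (CD11c) at 6.74, 8.13 and 8.21. Gpnmb (0.739, 0.317 and 0.466 TPM) and Fabp5 (25.6, 27.1 and 27 TPM) were lower than the mean of the other types, although Gpnmb was at a log2 fold change of 0.18 without dentate gyrus granule cells and 0.00 without astrocytes among them. Among 21 immediate early and stress genes, which respond to tissue handling as well as to activity, 12 were higher, 5 lower and 5 enriched. The shares over all genes tested were 43.4% higher, 37.6% lower and 12.9% enriched. Fos was at 7.85, 8.82 and 7.46 TPM with a log2 fold change of -1.31 ± 0.45, whereas Zfp36 (32.8, 27.1 and 27.6 TPM), Klf2 (54.1, 31.3 and 39.8 TPM), Klf4, Atf3 and Btg2 were enriched.

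Spread among the 3 microglia libraries was small for most genes. The libraries correlated with each other at r = 0.9869 to 0.9884 over genes and with the astrocyte libraries at 0.8455 to 0.8581, values over genes that are no independent replicates. The median coefficient of variation was 10.1% for enriched genes, 8.91% for depleted genes and 7.04% for all genes of at least 1 TPM. Of 1048 enriched coding genes of at least 20 TPM, 7 differed by at least 2-fold between the highest and lowest microglia library, and all 7 were highest in replicate 3. They were Col1a1 (141.6, 58.6 and 308 TPM), Col1a2 (90, 43.5 and 245 TPM), Spp1 (53.9, 35.6 and 171.8 TPM), Bglap (404.2, 159.7 and 490 TPM), Bglap2 (196.7, 73.7 and 279.2 TPM), Bgn (30.6, 21.9 and 48.7 TPM) and Ifi27l2a (27.6, 19.2 and 42.8 TPM). The collagen chains, osteopontin (Spp1), biglycan (Bgn) and osteocalcin (Bglap) are genes of bone and connective tissue. Bglap had a log2 fold change of 9.89 over astrocytes. Bglap, Bglap2 and Bglap3 are near-identical copies within chromosome 3 (88368616 to 88384464), so the division of counts among them is uncertain. A list of 12 bone genes was then drawn up after these values had been seen. Its summed level was 381.7 to 1541 TPM in microglia and 120.8 to 133.2 TPM in astrocytes, replicate 3 was highest for 11 of 12 genes, 11 were called higher and 6 enriched. Without replicate 3, 10 were higher, 1 was lower and 4 were enriched. A list of 10 genes of the leptomeninges, drawn up in the same way, had 10 genes higher and 5 enriched with replicate 3, and 2 enriched without it. Its summed level was 6566 to 10101 TPM in microglia and 3665 to 5894 TPM in astrocytes. Ptgds headed the list at 9189, 6324 and 9730 TPM but reached 5389 TPM in an astrocyte library. At a log2 fold change of 0.86 over astrocytes it was not enriched. The part of tissue from skull or meninges in these levels was not tested.

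Ighm, the immunoglobulin heavy chain mu, and Cd79b, a chain of the B cell receptor, were enriched at 288.5, 301.8 and 258.4 TPM and 32.2, 28.9 and 26.4 TPM. Of the other B cell genes, looked up after these values had been seen, Ms4a1 and Pax5 were at most 0.258 TPM, Cd79a was at 1.81 to 1.97 TPM and Igkc at 1.56 to 3.37 TPM. Among the 15 enriched genes of the highest level were also Trp53bp1 and Bcar1. Trp53bp1, which encodes a DNA repair protein, was at 9172, 10133 and 8651 TPM against 178.7 to 1750, and Bcar1, an adaptor of integrin signalling, at 7177, 9103 and 7395 against 507.1 to 1464. The nearest type for both was the interneurons, which were also sequenced in batch 2, at means of 1698 and 1391 TPM. The log2 fold changes over interneurons were 2.74 and 2.78. These levels are sums over the transcripts of a gene, and the part of single transcripts in them was not tested. Rpl22 itself, whose tagged product was pulled down in every group, was at 485.5, 484.4 and 465.9 TPM against 110 to 308.3 TPM. From counts the difference was smaller, with a log2 fold change of 0.73 against the mean and 0.37 against dentate gyrus granule cells. Against astrocytes it was 0.09 (adjusted p = 0.143 by the quasi-likelihood test), so Rpl22 was not enriched against each type.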

How the data were processed

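Ribosome-bound mRNA was sequenced from 22 libraries, of which 18 were compared, with batch 1 taken where a replicate had been sequenced in both batches. Reads had been trimmed by cutadapt 3.5, and kallisto 0.46.2 had assigned them to GENCODE M24 transcripts (GRCm38). The authors deposited estimated counts and TPM for 142552 transcripts per library. Here both were summed per gene (55385 genes), and the summed estimated counts were rounded to whole numbers. Libraries held 38270477 to 97992957 estimated counts. Genes were filtered with filterByExpr, scaled with TMM and tested with edgeR 4.0.16 (quasi-likelihood F test, R 4.3.3) in a single fit over 6 groups, with p-values adjusted by Benjamini-Hochberg over 20524 genes. The SE was taken as the log2 fold change divided by the square root of F. Levels are the TPM the authors deposited, and folds and p-values come from counts. The study's own differential test was not run. Replicates are separate libraries of a group, pools of 2 mice for interneurons, and p-values measure the spread between them.

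Named genes were the 5 markers, members of 37 gene lists and 28 gene pairs, and, among protein-coding genes of at least 20 CPM, the 10 enriched and 10 depleted with the widest margin and the 15 enriched with the highest TPM. The members and lists were chosen with earlier results of these data known. The lists of bone, leptomeninges and B cell genes and the genes that varied among the microglia libraries were chosen after their values had been seen. Promoters came from RefSeq (GRCm38.p6), those of 1 chromosome not used here. Some genes of the lists are counted in the results but not reported here by name. Alternatives were other scaling (RLE, upper quartile), other filters, DESeq2 1.42.0, limma 3.58.1 on log2(TPM + 1), other choices of library and batch, a replicate block, other comparison groups and leaving out each library. The edgeR and DESeq2 steps were tested on data drawn with known changes. Figures were drawn with matplotlib.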

Additional observations from a re-analysis of the deposited data

How the results depend on the processing

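The counts of genes higher and lower against the mean and of genes enriched against each type stayed within 1.5 times their values under all 35 alternatives. The count depleted against each type was 805 with limma on log2(TPM + 1), 2040 without astrocytes and 2533 against layer V neurons and astrocytes alone, where fewer types have to be passed in the last 2 cases and the cause of the first was not tested. Leaving out each library in turn gave 8234 to 9226 genes higher, 7471 to 8137 lower, 2436 to 2822 enriched and 1154 to 1371 depleted. With the replicate number as a block, 8844 genes were higher, 7684 lower, 2638 enriched and 1243 depleted. Microglia libraries did not deviate together with the libraries of the same number in the other types (r between -0.026 and 0.065). Pairs among the other types were not examined, and these values do not establish whether the numbers pair the samples.

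Of 7571 values of 217 named genes under the alternatives, 7489 kept their direction and side of the threshold, 24 lost the call, 40 gained it and 18 changed direction. The changes of direction all came with another comparison group. Without dentate gyrus granule cells, Gpnmb was at 0.18 and Il1r1 at 0.47 (log2 fold change). Without cerebellar granule cells, Il34 was at -0.55, Khdrbs3 at -0.36 and Mef2c at -0.25. Without interneurons, Mbp was at 0.03, and without astrocytes, Gpnmb was at 0.00 and Megf10 at 0.52. Against layer V neurons and astrocytes alone, Axl was at -0.11, Flt3 at 0.11, Il1r1 at 0.46, Il34 at -0.85, Khdrbs3 at -0.86, Mef2c at -0.20 and Mfge8 at -0.82. With neurons and astrocytes weighted equally, Axl was at -0.23, Csf1 at -0.02 and Mfge8 at -1.03.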
